A study of Mus musculus with 8 samples.

Results

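Mfap4, Slc38a5, Unc13c, Zfp160, Smpd3 and Prkar2b are the 6 genes described here, of 19057 genes on the array. They were chosen by their log2 differences between PDGF receptor knockout and control, which passed the call in embryonic hearts and again in epicardial cultures. PDGF receptor and Sox genes were set aside by that rule, and every probe bearing a member's symbol was kept. The members had 9 probes, of 34885 probes with 1 gene symbol. A call needed a log2 difference of at least 1 in size and, on the brighter of the 2 arrays, a detection p under 0.01. The choice used the knockout and control values themselves, so these differences are given as a description, with no test.

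RNA came from mouse embryos at E12.5 on a mixed C57 background and was hybridized to 8 Illumina bead arrays, 1 for each group, so no group had a replicate. The heart groups were hearts with an epicardium-specific knockout of both PDGF receptor genes, Pdgfra and Pdgfrb, and wild type control hearts, all without the conotruncal region. The cultures were outgrowths of epicardium kept for 3 days and then for 2 further days. They comprised a knockout culture with the same receptor genotype, wild type cultures given 20 ng/ml PDGF-BB for 12 h or for 24 h, and a wild type control culture. The last pair was a wild type culture given bFGF at 25 ng/ml, TGF-β1 at 10 ng/ml and PDGF-BB at 20 ng/ml (the 3-factor culture), and a wild type vehicle culture. The labels put the control culture on vehicle as well, give no treatment for the knockout culture, and name no Cre driver. Each array held a pool of at least 3 hearts or cultures, and the labels do not say whether pools shared litters. In each pool, fewer cells of a type and less RNA per cell cannot be told apart.

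The epicardium covers the heart as a thin epithelial sheet. Some of its cells undergo epithelial to mesenchymal transition, enter the heart wall and become fibroblasts and mural cells, and signalling through the PDGF receptors is known to take part in this. The 6 genes belong to no common pathway. Mfap4 encodes a secreted glycoprotein of microfibrils and elastic fibres, and Slc38a5 a sodium-coupled transporter of glutamine and other neutral amino acids. Unc13c encodes a vesicle priming protein best known from cerebellar synapses. Smpd3 encodes neutral sphingomyelinase 2, which cleaves sphingomyelin to ceramide and is known for its role in exosome release and in the skeleton. The product of Prkar2b is the RIIβ regulatory subunit of protein kinase A, which holds the catalytic subunits inactive until cAMP binds. Zfp160 encodes a zinc finger protein.

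The genes lie on 6 different chromosomes of build GRCm38.p6: Mfap4 (Entrez gene 76293) at chr11:61485431-61488708, Slc38a5 (209837) at chrX:8271381-8280179, Unc13c (208898) at chr9:73479422-74008155, Zfp160 (224585) at chr17:21008941-21028857, Smpd3 (58994) at chr8:106252548-106337965 and Prkar2b (19088) at chr12:31958450-32061648. Slc38a5 is thus X-linked. RefSeq promoter sequences of that build were matched by symbol for 4 of the 6. They are shown for 3 of the 4 genes that were lower in both knockout samples and for Prkar2b, the gene called in opposite directions, so that what the upstream sequences share can be seen. Each is the 250 bases before the first start site in the table, 5′ to 3′ on the gene's strand. The windows are chrX:8271131-8271380 (plus strand) for Slc38a5, chr9:73969038-73969287 (minus) for Unc13c, chr17:21008691-21008940 (plus) for Zfp160 and chr12:32061278-32061527 (minus) for Prkar2b. For Unc13c and for Prkar2b, the listed start and the whole window lie inside the gene's span. Capitals mark matches on either strand to CANNTG (the E-box core), AACAAT (a Sox core), CAGAC (a Smad core), TGACGTCA (the cAMP response element) or TGANTCA (the AP-1 element).
Slc38a5: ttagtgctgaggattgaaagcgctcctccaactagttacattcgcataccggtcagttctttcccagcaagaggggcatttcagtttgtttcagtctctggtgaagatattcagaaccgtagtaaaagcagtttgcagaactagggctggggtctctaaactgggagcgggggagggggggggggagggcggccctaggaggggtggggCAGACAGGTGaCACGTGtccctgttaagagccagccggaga
Unc13c: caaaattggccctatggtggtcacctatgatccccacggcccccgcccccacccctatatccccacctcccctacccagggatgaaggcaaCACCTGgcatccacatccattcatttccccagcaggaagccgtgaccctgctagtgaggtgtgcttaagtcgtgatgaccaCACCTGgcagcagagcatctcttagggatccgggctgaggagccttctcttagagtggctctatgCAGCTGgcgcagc
Zfp160: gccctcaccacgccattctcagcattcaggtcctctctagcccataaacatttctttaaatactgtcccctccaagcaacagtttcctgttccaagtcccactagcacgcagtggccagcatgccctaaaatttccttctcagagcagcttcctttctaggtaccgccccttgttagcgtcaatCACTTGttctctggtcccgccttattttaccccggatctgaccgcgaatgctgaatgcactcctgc
Prkar2b: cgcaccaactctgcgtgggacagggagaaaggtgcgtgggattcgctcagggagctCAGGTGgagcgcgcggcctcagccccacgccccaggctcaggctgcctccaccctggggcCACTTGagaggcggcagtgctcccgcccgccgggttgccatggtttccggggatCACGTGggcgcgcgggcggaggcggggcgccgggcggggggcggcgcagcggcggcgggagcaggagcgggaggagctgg
The E-box core was found in all 4, with 2 matches for Slc38a5, 3 for Unc13c, 1 for Zfp160 and 3 for Prkar2b. It is common, being held by 66.2% of the 32851 promoters of that length in the table. Slc38a5 alone also had the Smad core, which overlaps its first E-box by 1 base and is held by 42.2% of promoters. The Sox core (9.42% of promoters), the cAMP response element (1.55%) and the AP-1 element (6.75%) were found in none of these windows, nor was any motif in the window before the second listed start of Prkar2b. GC content was 55.2% for Slc38a5, 58.8% for Unc13c, 51.2% for Zfp160 and 75.6% for Prkar2b, where the median promoter had 52.4%.

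As a whole, the arrays detected 14557 to 16661 of 45281 probes each. The deleted genes were checked first: the log2 level of Pdgfra was 5.80 in knockout hearts against 7.43 in controls, and 10.49 in the knockout culture against 11.61 in the control culture and 10.21 in the vehicle culture. Pdgfrb was not detected in the knockout hearts and had 5.62 in control hearts, with 5.85 in the knockout culture and 6.12 in the control culture. In hearts it was near the detection limit, so the knockout was only known to be at least 1.01-fold lower. Pdgfrb was called in neither of these comparisons. Where these probes lie relative to the deleted part is not known here, so they check the labels only in part. The epicardial and mesothelial genes Upk3b and Upk1b were detected in these hearts and cultures, but Tbx18 was not detected in any of the 4 knockout and control samples. The pools also differed in sex-linked RNA. Xist, made from the inactive X chromosome, was not detected in the knockout hearts, against 8.98 in control hearts, and it had 9.26 in the knockout culture and 7.69 in the control culture. The Y-linked Eif2s3y was detected in knockout hearts (6.33) and not in control hearts, and was undetected in the knockout culture, against 7.95 in the control culture.

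Of 8262 genes measured in both comparisons, 11 were called in both, which is 0.133%. The 6 members were among them by choice: 4 were lower in both knockout samples (background 0.0726%), 1 was higher in both (0.0242%) and 1, Prkar2b, was called in opposite directions (0.0363%). The other 5 genes called in both were Pdgfra, Sox9, the mitochondrial gene ND5, Xist and Eif2s3y. ND5, Xist and Eif2s3y are neither PDGF receptor nor Sox genes, and the rule does not say why they were left out. In hearts alone, 59 of 8915 measured genes were called (0.662%), and in culture 407 of 9762 (4.17%). The members had to pass both, so nothing is read from these shares.

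**Figure D1:**
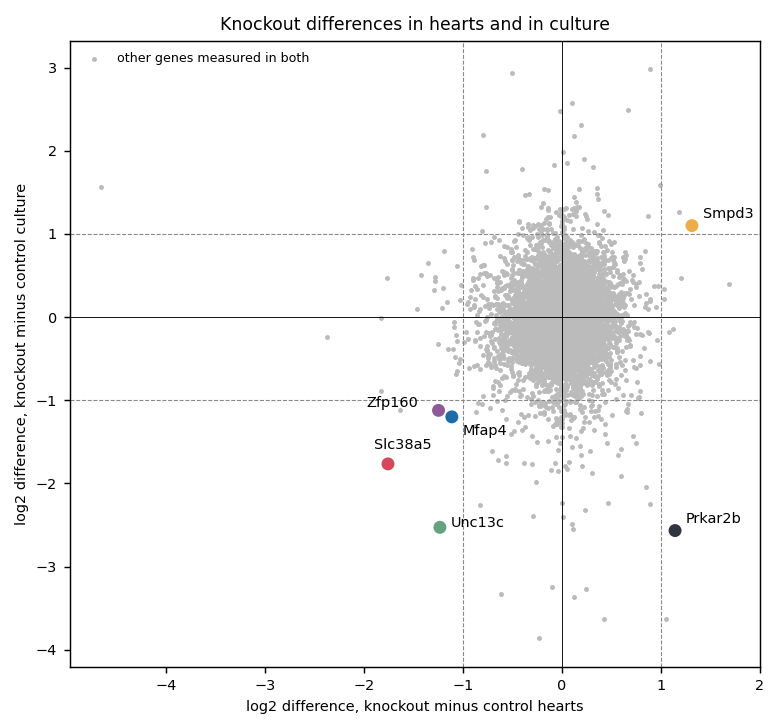
Log2 difference of the knockout from the control hearts (x axis) and of the knockout from the control culture (y axis) for the 8262 genes measured in both, 1 grey point per gene, with the 6 members coloured and named. Dashed lines mark a difference of 1 in size: 4 members lie at the lower left, Smpd3 at the upper right and Prkar2b at the lower right.

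Mfap4 had similar levels in hearts and in cultures. Its log2 level was 7.33 in knockout hearts and 8.44 in control hearts, a difference of -1.11 (rank 36 by size of 8915 genes). It was 7.34 in the knockout culture and 8.54 in the control culture, a difference of -1.20 (rank 229 of 9762). Both knockout samples were thus lower by a similar amount, and the gene was detected on all 8 arrays. As non-normalized bead intensities the values were 163 in knockout and 335 in control hearts, and 226 in the knockout and 537 in the control culture. With ligand, the level was 9.01 at 12 h and 8.31 at 24 h of PDGF-BB, against 8.54 in the control culture, and 7.94 in the 3-factor culture against 8.88 in the vehicle culture. The difference with 3 factors, -0.94, lay just short of the size rule, and those with PDGF-BB were 0.47 and -0.24. The knockout culture was the lowest of the 6 cultures, 0.59 below the next.

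The other genes of elastic fibres and microfibrils, a list of 19 genes with a probe, were as follows. In the knockout hearts 0 of 14 measured genes were called (0.662% over all genes), with a median difference of -0.20 against 0.00 over all measured genes. The widest values were -0.60 for the fibulin Fbln2 and 0.47 for Ltbp1, which anchors latent TGF-β in the matrix. In the knockout culture 1 of 15 rose and 2 fell (4.17% of all genes were called), with a median of -0.28 against 0.01 over all genes. Emilin2, an elastin interface protein, rose by 1.17. Ltbp1 fell by 2.24 and the fibulin Fbln1 by 1.36, whereas in the knockout hearts Fbln1 had a difference of 0.32. The list's direction in culture depended on the untreated culture. Against the vehicle culture 4 of 15 measured genes were higher in the knockout culture and 1 was lower (14.7% of all genes were called). The median was then 0.21. Elastin itself, Eln, was not called in either comparison (-0.34 in hearts, 0.60 in culture), but was at least 4.21-fold lower in the 3-factor than in the vehicle culture. After 24 h of PDGF-BB its difference was -2.07 from the control culture. At 24 h, 0 of 13 measured genes of the list, Eln among them, were called against the vehicle culture, with differences of -0.40 to 0.70. The PDGF-BB value of Eln thus rests on the control culture's level. With 3 factors 2 of the 15 measured genes rose, Fbln2, which just reached the size rule, and Mfap3l, by at least 3.93-fold, and the list's median was 0.26.

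Slc38a5 was the largest heart difference of the 6. In knockout hearts it had a log2 level of 7.31, against 9.07 in control hearts, a difference of -1.76 (rank 8 of 8915), or 161 against 484 as intensities. In culture it was near or below the detection limit: it was not detected in the knockout culture and had 6.53 in the control culture, so that it was at least 2.41-fold lower. This culture difference did not set the knockout apart from wild type cultures. The transcript was not detected in the vehicle culture either, which was at least 2.17-fold lower than the control culture. It was likewise undetected in the 3-factor culture and after 24 h of PDGF-BB, and had 6.14 after 12 h. Detection was thus limited to 4 of 8 arrays, both hearts among them.

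PDGF-BB for 24 h gave the one call of a member in the PDGF-BB comparisons, Slc38a5 at least 2.37-fold lower than in the control culture (rank 14 of 9698). That call rests on the control culture's level: against the vehicle culture, itself without detection, the member was not measured at 24 h. At 12 h its difference was -0.38 from the control culture, and the level was at least 1.66-fold above the vehicle culture, short of a call. Because Slc38a5 is X-linked, the Xist levels are given beside it: Xist was at least 10.3-fold lower in the knockout hearts, where Slc38a5 was lower, and 1.56 higher on the log2 scale in the knockout culture, where Slc38a5 was lower too. Erythroid markers summed to 91598 (linear level, 7 of 7 detected) in the knockout and 81242 (7 of 7) in control hearts, and to 237 (1 of 7) in the knockout and 989 (4 of 7) in the control culture. In the vehicle culture, where Slc38a5 was not detected, they summed to 14890. The part of sex or of blood cells in the Slc38a5 values was not tested.

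Among other amino acid transporters, 19 with a probe, 0 of 10 measured in hearts were called (0.662% over all genes) and 0 of 12 in culture (4.17%), with medians of 0.07 and -0.06. Counts this small are near those shares, and nothing is read from them about the transporters. Among its relatives, the broadly expressed glutamine transporters Slc38a1 and Slc38a2 had differences of 0.28 and -0.43 in hearts and of -0.50 and -0.24 in culture. Slc38a7, a lysosomal glutamine transporter, had 0.99 in culture, just short of a call. Slc1a5, an exchanger of neutral amino acids, was detected in the knockout but not in the control hearts, at least 1.15-fold higher and not called. The 3 factors raised Slc7a7, a light chain of cationic amino acid exchange, by 1.30.

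Unc13c was detected in every wild type culture and not in the knockout culture. Its main probe was not detected in the knockout culture and had 7.19 in the control culture, a level at least 3.82-fold lower in the knockout (rank 17 of 9762 by a difference of -2.53 from a level without detection). All 5 wild type cultures held it at 7.19 to 7.98, so the knockout culture lay at least 1.93 below the lowest of them, as far as the detection limit shows. The intensities were 57.4 in the knockout and 231 in the control culture. A second probe was not detected in the knockout culture and had 5.97 in the control culture, at least 1.64-fold lower, and the third was detected on no array. In hearts the signal was near the limit of detection: the main probe was not detected in the knockout hearts and had 5.66 in the control hearts. The measured difference there was -1.23, but by the detection limit the knockout hearts were only known to be at least 1.03-fold lower, and the second probe was detected in neither heart sample. Its heart call therefore rests on a value that the detection limit barely bounds.

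With PDGF-BB Unc13c had 7.54 at 12 h and 7.54 at 24 h, against 7.19 in the control culture. In the 3-factor culture it had 7.37 against 7.98 in the vehicle culture, a difference of -0.61, while the second probe differed by 0.21. None of these reached the size rule. The vehicle culture was 0.79 above the control culture, so these ligand differences were no larger than that between the untreated cultures. The untreated cultures were in different sets of the authors' processed arrays, so set and culture cannot be told apart in that value. Of 6 neural markers with a probe, 1, the adhesion gene Ncam1, was detected on every array, with a difference of -0.15 in the knockout hearts and -0.86 in the knockout culture, and the other 5 were detected on none.

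Of the other vesicle priming and fusion genes, 0 of 10 measured in hearts were called (median 0.01, with 0.662% of all genes called), and 0 of 10 in the knockout culture (median -0.03, with 4.17%), counts near the shares over all genes. Its paralog Unc13b, which also primes vesicles and is expressed outside neurons, differed by 0.04 in hearts and 0.49 in culture. Paralogs Unc13a and Unc13d were not detected in these 4 samples. In the 3-factor culture Unc13b fell by 1.06, while the active zone gene Rims2 was at least 1.93-fold higher than in the vehicle culture and the calcium sensor Syt1 at least 2.01-fold.

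Zfp160 had modest and nearly equal differences. It had a log2 level of 5.73 in knockout hearts and 6.97 in control hearts, a difference of -1.25 (rank 20 of 8915). In culture it was 5.76 in the knockout and 6.88 in the control, a difference of -1.12 (rank 291 of 9762). Its intensities were 78.9 in knockout and 147 in control hearts, and 92.8 in the knockout and 191 in the control culture, where the lowest intensity of any detected probe was 73.7 to 77.3 on these arrays. The PDGF-BB cultures had 6.61 (12 h) and 6.51 (24 h), against 6.88 in the control culture, and 7.45 in the 3-factor culture against 7.30 in the vehicle culture. None of the ligand values was called, and the knockout culture lay 0.76 below the lowest of the 5 wild type cultures. There were 303 further genes named Zfp with a probe. In hearts 1 rose and 2 fell among 155 measured (median -0.04, with 0.662% of all genes called). In culture 2 rose and 1 fell among 178 (median -0.06, with 4.17% of all genes called). Nothing is read from these small counts about the Zfp genes. Those called in hearts were Zfp869, which rose by 1.21, Zfp157, which fell by 1.28, and Zfp933, at least 1.72-fold lower. In culture Zfp703 rose by 1.18, Zfp985 was at least 1.85-fold higher and Zfp93 at least 1.64-fold lower. With 3 factors Zfp365 rose by 1.19, and after 24 h of PDGF-BB Zfp185 fell by 1.09, Zfp93 was lower by at least 1.61-fold and Zfp775 by at least 1.18-fold.

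**Figure D2:**
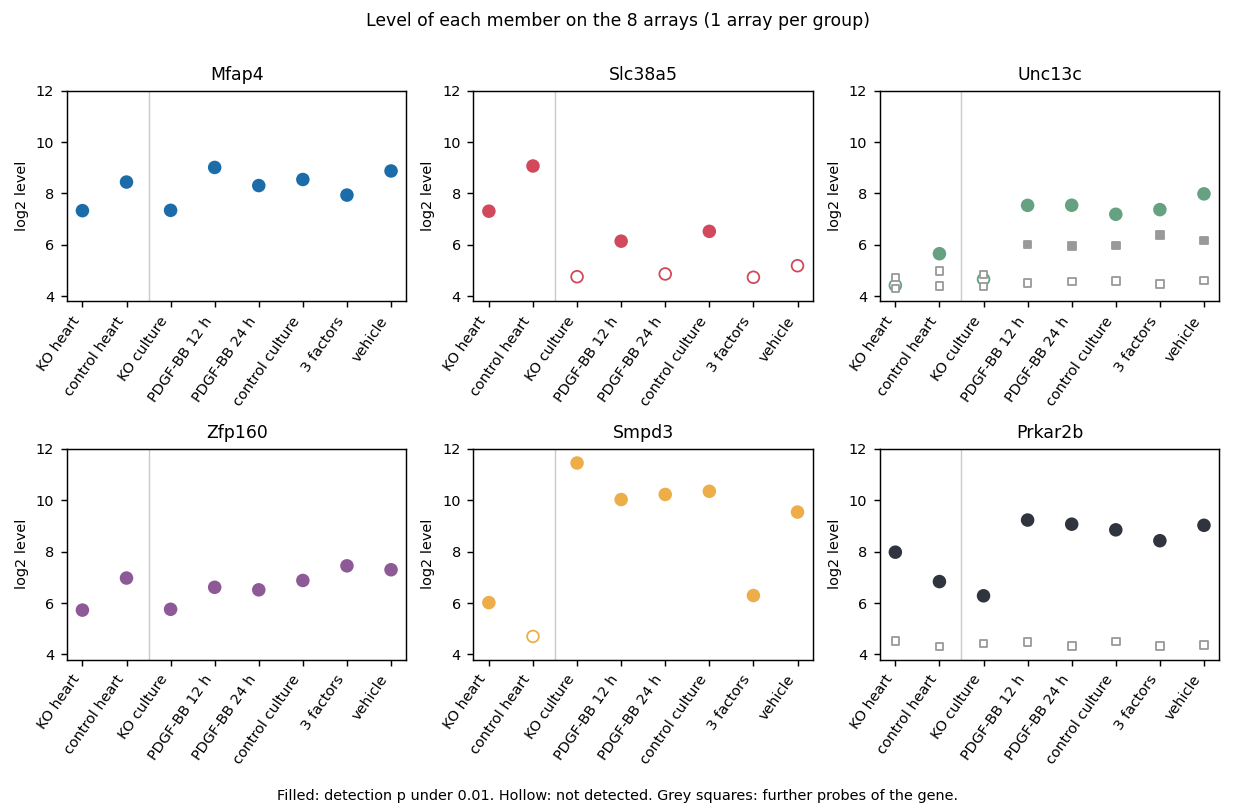
Log2 level of each member (y axis) on the 8 arrays (x axis, KO for knockout), 1 panel per gene and 1 point per array; filled points were detected, hollow ones were not, and grey squares are further probes of the gene. Mfap4, Unc13c, Zfp160 and Prkar2b were lower in the knockout culture than in all 5 wild type cultures, and Smpd3 stands at 6.29 in the 3-factor culture.

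Smpd3 was the member higher in both knockout samples, and the one with the largest difference in a ligand comparison. In hearts it had 6.02 in the knockout and was not detected in the control, which puts the knockout hearts higher by at least 1.45-fold (rank 14 of 8915 by a measured difference of 1.31). In cultures it was bright, with 11.45 in the knockout and 10.35 in the control culture, a difference of 1.10 (rank 308 of 9762), or 3391 against 1776 as intensities. The knockout culture exceeded all 5 wild type cultures, by 1.10 over the highest. PDGF-BB gave 10.03 at 12 h and 10.22 at 24 h, against 10.35 in the control culture, neither of them called.

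In the 3-factor culture Smpd3 fell by 3.25, to 6.29 against 9.54 in the vehicle culture (rank 31 of 9183), with intensities of 101 and 693. The rule that chose the members used neither array. In that comparison 10.3% of all measured genes were called, and 5.05% of all measured genes were called lower, so calls were common there. Against the control culture the difference was -4.05. The untreated cultures themselves differed by -0.81 (vehicle minus control). Pooling the untreated cultures into 1 group, limma gave -3.65 with an adjusted p of 0.110 over 10104 genes, on 1 residual degree of freedom, and the single 3-factor array lay below both untreated ones. Markers of several cell types moved with it. Fibroblast markers summed to 14940 in the 3-factor and 34735 in the vehicle culture, with 6 of 8 measured called lower. Epicardial markers summed to 5573 and 13593 in the 3-factor and vehicle cultures (3 of 7 lower), smooth muscle markers to 31686 and 39714 (3 of 6 lower) and erythroid markers to 177 and 14890 (4 of 4 lower). Macrophage markers summed to 20541 in the 3-factor and 10444 in the vehicle culture, with 4 of 8 called higher. Of cardiomyocyte markers 4 of 7 were called higher and 3 lower. In the knockout comparison the fibroblast sums were 44818 in the knockout and 40892 in the control culture. There 2 of 8 were called lower, Col3a1 and the deleted gene Pdgfra, and 0 higher (4.17% of all genes were called). The part of these cell types in the Smpd3 values was not tested.

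Of the other genes of sphingomyelin and ceramide metabolism, 0 of 19 measured in hearts were called (median -0.01, with 0.662% of all genes called) and 0 of 22 in culture (median 0.04, with 4.17%). The lysosomal sphingomyelinase Smpd1 differed by 0.30 in hearts and -0.17 in culture, and the neutral sphingomyelinase Smpd2 by -0.03 and 0.35. The list's only call with 3 factors was Sphk1, the kinase that makes sphingosine 1-phosphate, which rose by 2.82. Sphk1 also rose by 1.03 from the control culture after 12 h of PDGF-BB, just past the size rule, with 0.88 at 24 h. Against the vehicle culture 0 of 21 measured genes of the list were called at 12 h (6.86% of all genes were). At 24 h 0 of 21 were (5.81%). The 12 h call of Sphk1 thus rests on the control culture's level.

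Prkar2b was the member called in opposite directions. Its main probe read 7.98 (log2 level) in knockout hearts and 6.83 in control hearts, a difference of 1.14 (rank 33 of 8915). In culture it had 6.28 in the knockout and 8.85 in the control, a difference of -2.57 (rank 15 of 9762). As intensities, these were 232 in knockout and 138 in control hearts, and 122 in the knockout and 654 in the control culture. The 5 wild type cultures held Prkar2b between 8.42 and 9.23, and the knockout culture was 2.14 below the lowest. PDGF-BB gave 9.23 at 12 h and 9.07 at 24 h, against 8.85 in the control culture, and the 3 factors 8.42 against 9.02 in the vehicle culture, none of them called. The untreated cultures differed by 0.18. The gene's other probe was not detected on any array.

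Of the other genes of protein kinase A, 0 of 23 measured in hearts were called (median -0.04, with 0.662% of all genes called). The regulatory subunits Prkar1a and Prkar2a differed there by -0.38 and -0.07, and the catalytic subunits Prkaca and Prkacb by -0.29 and -0.08. In the knockout culture 1 of 27 rose and 1 fell (median -0.02, with 4.17% of all genes called), again near the share over all genes. Pkib, an inhibitor of the kinase, rose by 1.01, and the anchoring protein gene Akap5, whose product binds RII subunits, fell by 1.31. Prkar1a, Prkaca and Prkacb had culture differences of -0.24, -0.02 and -0.29. With 3 factors the kinase inhibitor gene Pkia fell by 1.28 and the cAMP phosphodiesterase Pde7a was at least 1.67-fold higher.

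The cell makeup of the cultures, as far as markers show it, differed alongside these values. Macrophage markers summed to 40957 in the knockout and 16362 in the control culture, with 4 of 9 called higher, and 8 of 9 and 9 of 9 detected. Over all genes, 4.17% were called between these 2 cultures. Cardiomyocyte markers summed to 4307 in the knockout and 4688 in the control culture, with 5 of 7 measured called lower. The vehicle culture also had 5 of 7 called lower than the control culture (10.6% of all genes were called). Against the vehicle culture 2 of 6 were called lower in the knockout culture (14.7%). The cardiomyocyte count thus rests in large part on the control culture's level. Actc1, Myh6, Myh7, Myl3, Nppa and Ttn were not detected in the knockout culture, and Myh7 and Ttn were not in the control culture. Smooth muscle markers summed to 32145 and 42206 in the knockout and control cultures, with 2 of 5 called lower, and epicardial markers to 31836 and 20576, with 1 of 7 called higher. In hearts 0 of 8 macrophage, 0 of 9 cardiomyocyte and 0 of 7 erythroid markers were called, and 1 of 7 fibroblast markers, Pdgfra, fell (0.662% of all genes were called). Fibroblast sums were 3215 in the knockout and 4176 in the control hearts. Their part in the members' differences was not tested.

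Set against the vehicle culture, which the authors had processed with the other set of arrays, 5 of 6 members were called in the knockout culture (14.7% of all genes). The knockout array is one on which the members were chosen, so nothing is read from that count. The differences were -1.53 for Mfap4, -1.54 for Zfp160, 1.91 for Smpd3 and -2.74 for Prkar2b, and Unc13c was at least 6.63-fold lower. Slc38a5 was detected on neither array. In all, 4 members were below every wild type culture and Smpd3 above, again on the array that chose them. Among all genes called lower in the knockout culture, 66.4% were below all 5, and among those called higher 89.7% were above all 5. The 3 ligand comparisons called 0 members at 12 h of PDGF-BB (background 0.558%), 1 at 24 h (1.23%, with 0.815% lower) and 1 with 3 factors. The PDGF-BB and knockout comparisons share the control culture, so their values are set side by side and not counted as separate evidence. The vehicle and control cultures differed at the size rule in 1 member, Slc38a5, where 10.6% of all genes did.

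**Figure D3:**
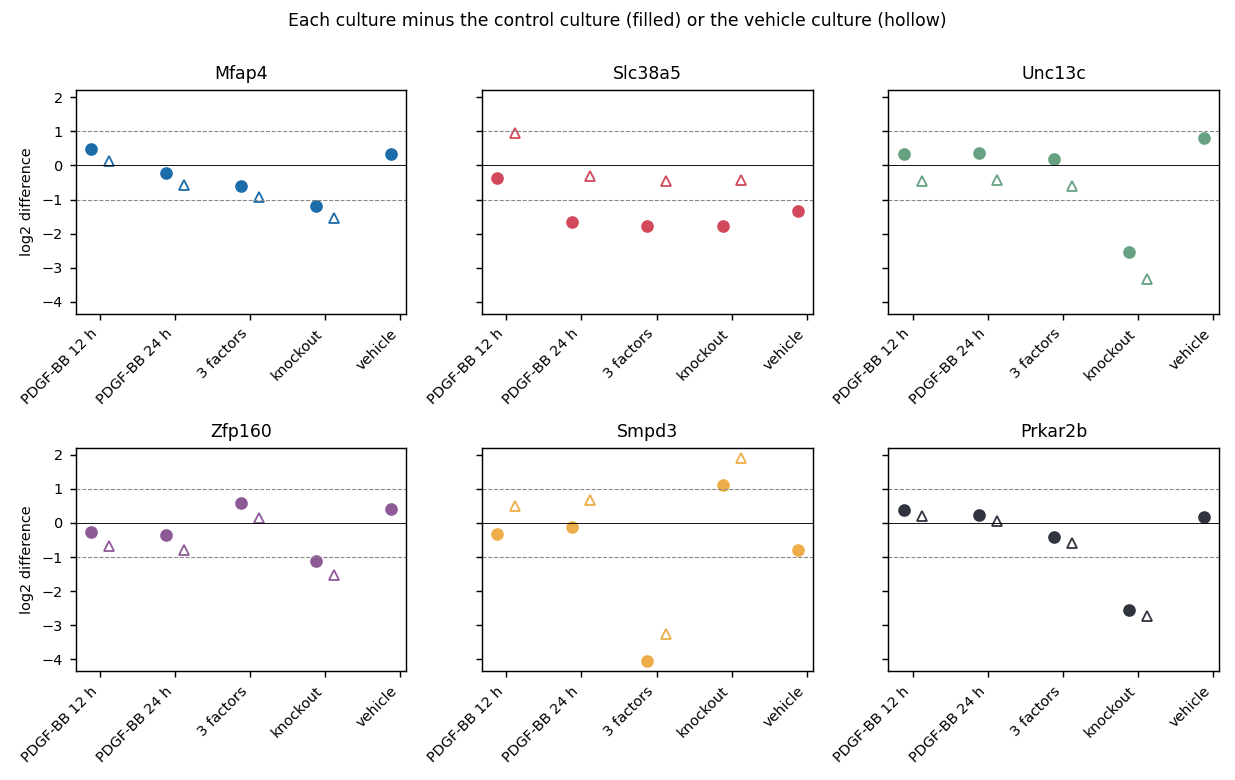
Log2 difference of each culture (x axis) from the control culture (filled circles) or the vehicle culture (hollow triangles), 1 panel per member, with dashed lines at a difference of 1 in size. For Unc13c and Prkar2b the knockout culture (without detection of Unc13c) has -2.53 and -2.57 from the control culture while the ligand cultures have -0.61 to 0.38 from either untreated culture, and Smpd3 is lowest with 3 factors.

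Across all 8 arrays the members did not share one profile. The distance between 2 centred log2 profiles, as the root mean square over arrays, was smallest for Mfap4 and Zfp160 (0.49), next for Unc13c and Prkar2b (0.76) and largest for Slc38a5 and Smpd3 (3.45). Among 5474 candidate genes, the profile nearest to Mfap4 was that of the fibril-associated collagen Col14a1 (0.30), followed by Erdr1 (0.34) and the phosphodiesterase Pde1a (0.35). Nearest to Zfp160 were the adhesion gene Flrt3 (0.27), Rai1 (0.27) and Septin11 (0.32). For Unc13c they were Crispld2 (0.48), the BMP modulator Bmper (0.54) and the forkhead factor Foxs1 (0.55), and Crispld2, undetected in the knockout culture, was at least 3.76-fold lower there and had 0.00 in hearts. Prkar2b was nearest to Ltbp1 (0.38), Twistnb (0.42) and Dtd2 (0.46), of which Ltbp1 had -2.24 in the knockout culture. Twistnb and Dtd2 were not detected there, which puts Twistnb lower by at least 1.88-fold and Dtd2 by at least 1.98-fold, and the 3 genes had 0.47, 0.23 and 0.06 in hearts. Smpd3 was nearest to the IGF-binding protein Igfbp6 (0.35), Gsta3 (0.49) and Hoxd8 (0.50), of which Igfbp6 had 1.02 in the knockout culture. For Slc38a5 the nearest were the ferroxidase Heph (0.58), Rnf144a (0.59) and Cacnb2 (0.61). These distances are a description over arrays that share their normalization.

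The rule's threshold fell among values that differ little. Just inside it, the smaller of the 2 knockout differences was 1.10 in size for Smpd3, 1.11 for Mfap4 and 1.12 for Zfp160. Just outside, among genes detected on all 4 arrays, were Wdfy1 (0.89 in hearts and -2.25 in culture), Cst9 (0.89 and 2.98) and Cd1d1 (-0.88 and -1.31). Zfp985 was also just outside, by a heart value of 0.99, but was not detected in the control samples: the knockout exceeded the control by at least 1.19-fold in hearts and by at least 1.85-fold in culture. Pde1a had -0.88 in culture and, undetected in the knockout hearts, was at least 2.5-fold lower there.

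How many members pass depends on the background correction, above all in hearts. Without background correction, with another model of background (normexp, offset 50) or with the authors' processed values, 1 of the 6, Slc38a5, had a heart difference of at least 1 (-1.57, -1.50 and -1.49). The other 5 kept their direction, from -0.97 to -0.92 for Mfap4, from -0.83 to -0.66 for Unc13c, from -0.88 to -0.76 for Zfp160, from 0.64 to 0.78 for Smpd3 and from 0.88 to 0.95 for Prkar2b. Over all genes the heart calls fell in number too, to 16, 14 and 13 where 59 are reported. In culture Unc13c, Smpd3 and Prkar2b kept a difference of at least 1 in these 3 settings, at -1.76 to -1.45, 1.07 to 1.10 and -2.19 to -2.01.

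**Figure D4:**
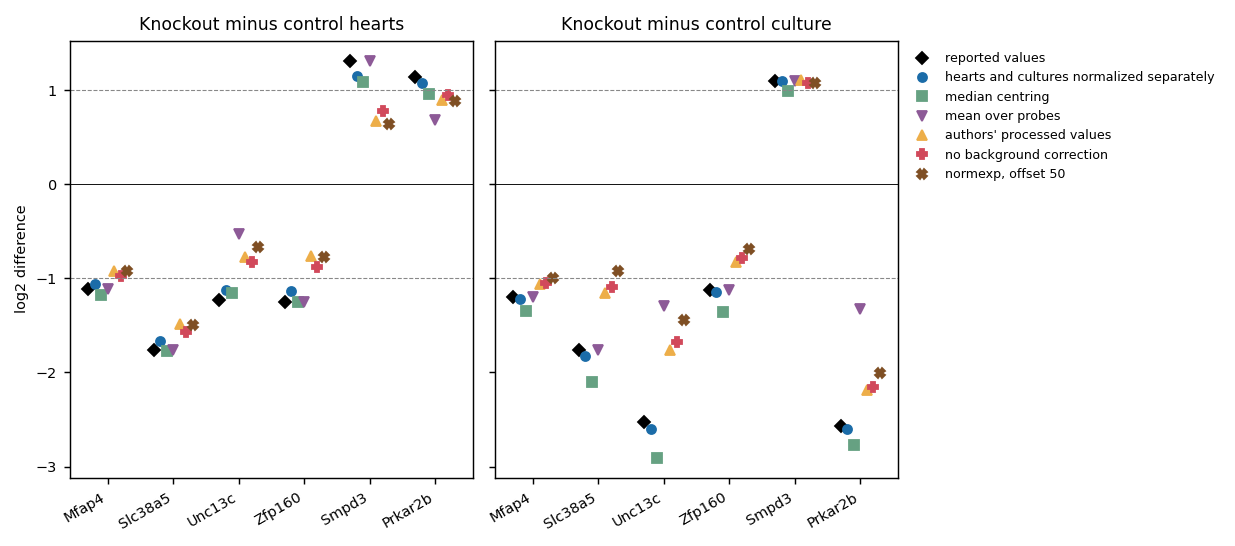
Log2 difference of each member (x axis) in the knockout from the control hearts (left panel) and in the knockout from the control culture (right panel), 1 symbol per processing setting, with dashed lines at a difference of 1 in size. In hearts Slc38a5 alone stays past the line in each setting, and in culture Unc13c and Prkar2b do; no member changes sign.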

How the data were processed

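RNA of 8 pools was measured on 8 Illumina mouse bead arrays, 1 per group, and groups followed the labels. The deposited tables hold a non-normalized intensity and a detection p-value per probe, exported with BeadStudio 3.3 per the submitters' processing notes. The authors also deposited processed values, a linear intensity with identical distributions within each of 2 sets of 4 arrays: both hearts, the 3-factor and the vehicle culture in one, the other cultures in the other. The sources used here do not say how they were normalized.

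The reported values come from the non-normalized intensities, corrected and quantile-normalized over all 8 arrays with limma 3.58.1 in R 4.3.3 (neqc, offset 16), on the log2 scale. A gene took its probe with the highest mean level. Of 45281 probes, 34885 had 1 gene symbol, 18 several and 10378 none, and 10722 of 19057 genes were detected (p under 0.01) on at least 1 array. Where no probe of the gene was detected on the dimmer array, the fold is a bound: the brighter level over the lowest detected level on the dimmer array, or over the gene's own level where higher. A gene was measured where it was detected on at least 1 of the 2 arrays compared.

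With 1 array per group there is no test of 2 arrays, and the number of arrays limits the precision. PDGF-BB cultures were set against the control culture and the 3-factor culture against the vehicle culture, which share a set. The only test was limma's, with the untreated cultures pooled into a group of 2 and Benjamini-Hochberg adjustment over all genes. The call rule was also run on simulated arrays. Differences were planted there only in bright probes, so the recovery of differences in dim genes was not examined. Members and gene lists were chosen with earlier results of these data known. Named genes are the members, Pdgfra and Pdgfrb, other genes called in both comparisons, the 5 genes nearest below the threshold, the 3 nearest profiles per member (genes detected on at least 4 arrays), and genes of the lists: those of the members' relatives that were called in a knockout or main ligand comparison, and some others chosen after their values were seen. Summaries used Python 3.11.15, numpy 2.4.6, pandas 2.3.3 and matplotlib 3.10.9. Alternatives covered background correction, normalization, the authors' values, detection, size threshold, probe choice and the untreated culture.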

Additional observations from a re-analysis of the deposited data

Results flagged for a closer look

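Prkar2b is listed here because its differences between knockout and control had opposite signs in hearts and in culture. Both differences were also used to choose the gene. The knockout hearts were 1.14 above the control hearts, and the knockout culture was -2.57 from the control culture, on the log2 scale. Each value comes from 1 pool per group, and the difference was not tested. Only one of its probes was detected, so no second probe bears on either value. The heart difference was under 1 in 5 of 9 alternative settings, with 0.68 as its lowest value. Settings of the detection filter and size threshold could not change it, and left it at 1.14. Of the rest, only separate normalization of hearts and cultures kept it above 1, at 1.08. The other genes called in opposite directions in the 2 comparisons were both sex-linked. In knockout hearts Eif2s3y exceeded control hearts by at least 1.81-fold, and in the knockout culture it was lower by at least 6.48-fold, the directions of Prkar2b, and Xist had the reverse ones, at least 10.3-fold lower in hearts and 1.56 higher (log2) in culture. The part of the pools' sex in the Prkar2b values was not tested.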

How the results depend on the processing

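Of the 6 members called in hearts, 1 was called without background correction, 1 with normexp (offset 50) and 1 with the authors' processed values. Of 6 called in culture, 3 were with normexp. The count of 1 at 24 h of PDGF-BB became 0 with normexp, 0 against the vehicle culture and 0 with limma. The count of 1 with 3 factors became 4 at 1.5-fold (24.8% of all genes), 2 against the control culture (16.8%) and 0 with limma. Between the untreated cultures 1 member differed, and 0 did without background correction, 0 with normexp and 2 with median centring, alternatives chosen after seeing the data. The causes were not tested. At an adjusted p under 0.05, limma called 0 genes of 10104 in each of the 3 ligand comparisons, and 25, 18 and 734 genes had an unadjusted p under 0.05. Over all genes, calls in hearts ranged from 13 with the authors' values to 455 at 1.5-fold, and in culture from 183 with normexp to 1497 at 1.5-fold.

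All knockout differences of the members kept their sign under the 9 alternatives of background, normalization, filter and probe choice. For part of these the outcome was fixed, since changing the detection filter or the size threshold leaves a difference as it is. Averaging probes can alter only genes with further probes. It moved the differences of genes with dim further probes most, Unc13c to -0.53 in hearts and Prkar2b to 0.68 in hearts and -1.32 in culture. Median centring moved the median of all measured genes to -0.10 in knockout hearts and -0.11 in the knockout culture. With PDGF-BB that median became -0.26 at 12 h and -0.31 at 24 h, where Prkar2b had -0.11 in place of 0.22. Of member values under alternatives, 244 kept within the set limits and 68 moved. These limits were not of equal size for all genes. With median centring in culture, Prkar2b at -2.77 counted as moved from -2.57, while Zfp160 at -1.36 counted as kept from -1.12. The 2 counts are thus no common measure of stability. The 244 include differences that the setting could not change. No paired analysis was possible because each group has 1 array.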
